A study of Homo sapiens with 10 samples.

Results

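Bacterial extracellular vesicles (bEVs) are small membrane particles that bacteria release with proteins, lipids, nucleic acids and metabolites from the parent cell. The comparison described here set the HEK293T transcriptome after bEVs of 4 Lactobacillales strains that the study chose for its skin health assays (L. acidophilus, L. rhamnosus, S. thermophilus and L. fermentum, called the selected bEVs) against that after bEVs of the 4 strains it did not choose (L. plantarum, L. salivarius, L. paracasei and Lc. lactics, spelled as in the labels, called the other bEVs). The comparison uses 8 of the 10 arrays of the series, 4 in each group. The remaining 2 arrays are of control cells without bEV. They were left out of the contrast, and their signals are given beside it.

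HEK293T is a human embryonic kidney cell line that carries the SV40 large T antigen, and the cell line field names it for all groups. Cells were grown in DMEM with serum. Cells received each bEV at its own maximum tolerated dose (MTD) for 6 h, and triplicate RNA was pooled to a composite sample for each array, although the methods do not say so of the controls. Each array is therefore of a different strain and of pooled cultures. The strains stand as the replicates of a group, and the p-values measure the spread between strains. In the study the MTD was highest for the bEV from L. paracasei, next for that from L. rhamnosus, and lowest for those from L. plantarum and L. salivarius, so that dose and strain cannot be told apart. The study chose the 4 strains through drug matches made from differential expression on these same arrays, together with collagen assays, of which the first took in every bEV, so the grouping is not independent of the measurements. The treatment text of the labels names Pk2 and no bEV, while the titles name the bEV of each strain. The titles of 7 of the 8 bEV arrays number the line HEK294T to HEK297T, while the field for the cell line gives HEK293T for all.

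Signals are log2 values per probe set of an Affymetrix whole-transcript array. The 14884 genes with a symbol here were compared, and the median of all probe sets lay between 3.29 and 3.33 on the 10 arrays. Of the HEK293T markers, 7 of 11 were measured, with a mean signal from 4.04 to 7.90 (log2) over the bEV arrays, the highest of them for VIM. The measured fibroblast markers lay between 1.82 (DCN) and 4.04 (THY1), the immune markers between 2.22 (LYZ) and 5.12 (CD68), and the keratinocyte markers between 2.19 (KRT5) and 3.74 (KRT14). None of the marker genes had an unadjusted p under 0.05 between the groups, and their differences ran from -0.18 (KRT14) to 0.16 (EYA1).

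No gene passed the test between the selected and the other bEVs. In limma, 0 of 14884 genes (0%) had an adjusted p under 0.05, and the smallest adjusted p was 0.9999. At an unadjusted p under 0.05 there were 566 genes, 3.80% of those tested, 284 higher and 282 lower with the selected bEVs. This share is below the threshold of 0.05 itself. The median width of the unadjusted 95% interval on each side of a difference was 0.26 (log2). Differences of this size and below could not be resolved for the typical gene, and larger ones need not pass the adjusted test.

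The arrays did not group by the study's choice. The Euclidean distance over all genes averaged 35.3 between arrays of different groups (16 pairs) and 35.8 between arrays of the same group (12 pairs). The exact permutation test gave p = 0.943 (one-sided for larger distances between the groups, smallest possible p = 0.0286, 4 arrays against 4). The distance averaged 34.99 within the selected bEVs and 36.6 within the other bEVs. Only 2 arrays, those of L. acidophilus and L. rhamnosus, had their nearest array in their own group, in each case S. thermophilus. The closest pair of all was L. fermentum and Lc. lactics at 32.9, followed by S. thermophilus and L. plantarum at 32.95, and both pairs cross the groups. The farthest pair, L. plantarum and L. salivarius at 38.3, lies within the other bEVs. The split between the groups held 12.9% of the sum of squares around the gene means, where an equal share per degree of freedom is 14.3%.

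**Figure D1:**
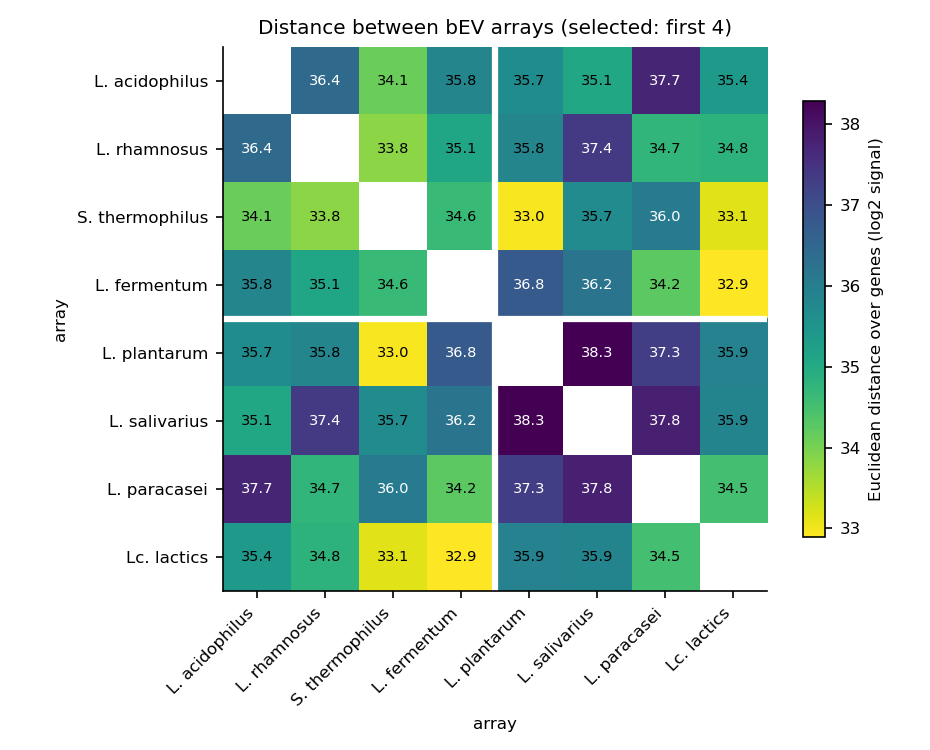
Euclidean distance over 14884 genes (log2 signal) between each pair of the 8 bEV arrays, with the selected bEVs first and white lines between the groups. Light cells are close pairs, and the closest pairs (32.9 and 32.95) lie in the blocks that cross the groups.

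Differences between the group means were small. They ran from -0.69 to 0.88 (log2), and 16 genes (0.107%) were at least 1.5-fold higher and 6 (0.0403%) at least 1.5-fold lower with the selected bEVs. Genes whose mean signal over the 8 arrays reached the median of genes (4.62) are called bright here and the rest dim. Only 3 of these 22 genes were bright, and in 7 of the 22 the signals of the groups did not overlap. No gene reached 2-fold. Among all genes, every selected array lay above every other array for 156 (1.05%) and below for 151 (1.01%). Of the genes above, 40 were bright, against 74 of the genes below.

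**Figure D2:**
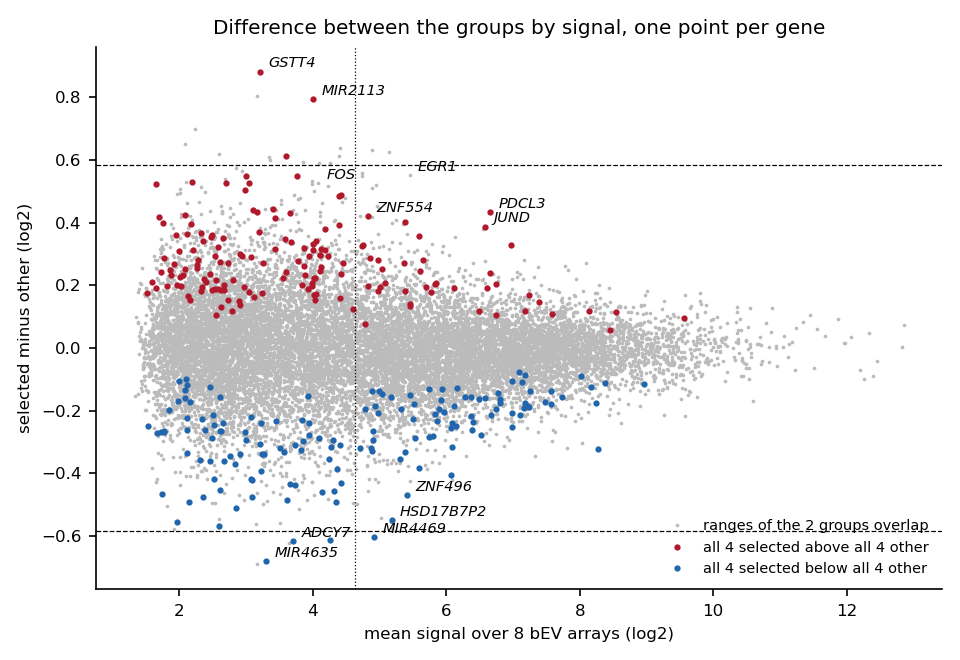
Difference between the means of the selected and the other bEVs (log2, y axis) against the mean signal over the 8 bEV arrays (log2, x axis), with a point for each gene. Coloured points are the 156 and 151 genes whose groups did not overlap, dashed lines mark 1.5-fold, and the dotted line marks the median signal, to the left of which most points beyond 1.5-fold lie.

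The bright genes whose groups did not overlap were named by the size of the difference, 12 in each direction, and their unadjusted limma p ran from 0.000638 to 0.044. The largest on the higher side was PDCL3, a phosducin-like protein of the cytosolic chaperonin system. Its signal (log2) was 6.99 with the bEV from L. acidophilus, 6.79 with L. rhamnosus, 6.88 with S. thermophilus and 6.84 with L. fermentum, against 6.74 with L. plantarum, 6.43 with L. salivarius, 6.17 with L. paracasei and 6.42 with Lc. lactics. The difference was 0.43 (95% interval 0.17 to 0.70). The controls read 7.10 and 6.42 and thus lay on either side of the gap.

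Zinc finger genes followed PDCL3. ZNF554 read 5.00, 4.94, 5.30 and 4.89 with the selected bEVs in the order above and 4.59, 4.66, 4.62 and 4.57 with the other bEVs, a difference of 0.42 (0.19 to 0.65), with controls of 4.74 and 4.22. ZNF585A differed by 0.40 (0.14 to 0.66), and both its controls, 5.04 and 5.18, lay in the range of the other bEVs. KLHL28, a Kelch-like gene, was 0.28 higher, with controls in and below that range. ZNF407 was 0.28 higher and ZBTB43, a BTB zinc finger gene, 0.27 higher, where the lowest selected and the highest other array both read 5.38. Of 491 measured genes named ZNF, 5 lay above and 6 below without overlap (2.24%, against 2.06% of all genes), and their median difference was 0.015 (log2), against -0.01 over all genes.

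Other genes higher with the selected bEVs were NGB, which encodes the neuronal oxygen-binding protein neuroglobin, at 0.36 (0.13 to 0.59), and RNASET2, a lysosomal ribonuclease, at 0.33 (0.14 to 0.52). RNASET2 was almost constant over the other bEVs, from 4.58 to 4.61, while the selected bEVs ranged from 4.81 to 5.01 and the controls read 4.95 and 4.78. FJX1, a homolog of the fly four-jointed kinase, differed by 0.33, EOLA1 by 0.32 and FOXE1, a thyroid forkhead factor, by 0.29. For NGB, EOLA1 and ZBTB43 both controls were within or beyond the range of the selected bEVs.

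Among the genes lower with the selected bEVs, HSD17B7P2, a pseudogene of the sterol enzyme gene HSD17B7, read 4.97, 4.73, 4.96 and 4.96 with L. acidophilus, L. rhamnosus, S. thermophilus and L. fermentum. With L. plantarum, L. salivarius, L. paracasei and Lc. lactics it read 5.75, 5.43, 5.31 and 5.33. The difference was -0.55 (-0.81 to -0.29), the controls read 4.66 and 4.98, and the signal of its probes cannot be assigned with certainty between the pseudogene and its parent, which itself differed by -0.21 with overlapping groups. ZNF496 was lower by -0.47 (-0.72 to -0.22), with 5.15, 5.35, 5.27 and 4.95 against 5.78, 5.56, 5.50 and 5.74. Both its controls, 5.30 and 5.05, were in the range of the selected bEVs.

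NRM, the inner nuclear membrane protein nurim, differed by -0.40 (-0.64 to -0.17), and COLEC12, a scavenger receptor with a collagen-like stalk, by -0.38 (-0.63 to -0.14). The controls of COLEC12 were themselves far apart, at 6.26 and 5.44. LIAS, the mitochondrial lipoic acid synthase, differed by -0.35, PNKD by -0.33, and LOC729737, TRIM66, BNIPL and CCDC18 by -0.32 each. Without L. plantarum, at 5.44 the highest array, TRIM66 differed by -0.18. LOC729737 has 5 probe sets here, and all were lower on average with the selected bEVs, by -0.06 to -0.32.

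The controls show how such gaps relate to cells without bEV. Of the 307 genes whose groups did not overlap, both controls were in or beyond the range of the selected bEVs for 66 and of the other bEVs for 77. They fell on opposite sides for 110, and at least 1 lay within the gap for 54. For 114 of the 307 (37.1%), the controls differed from each other by at least as much as the groups did, and the same held for 10 of the 24 bright genes named above.

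**Figure D3:**
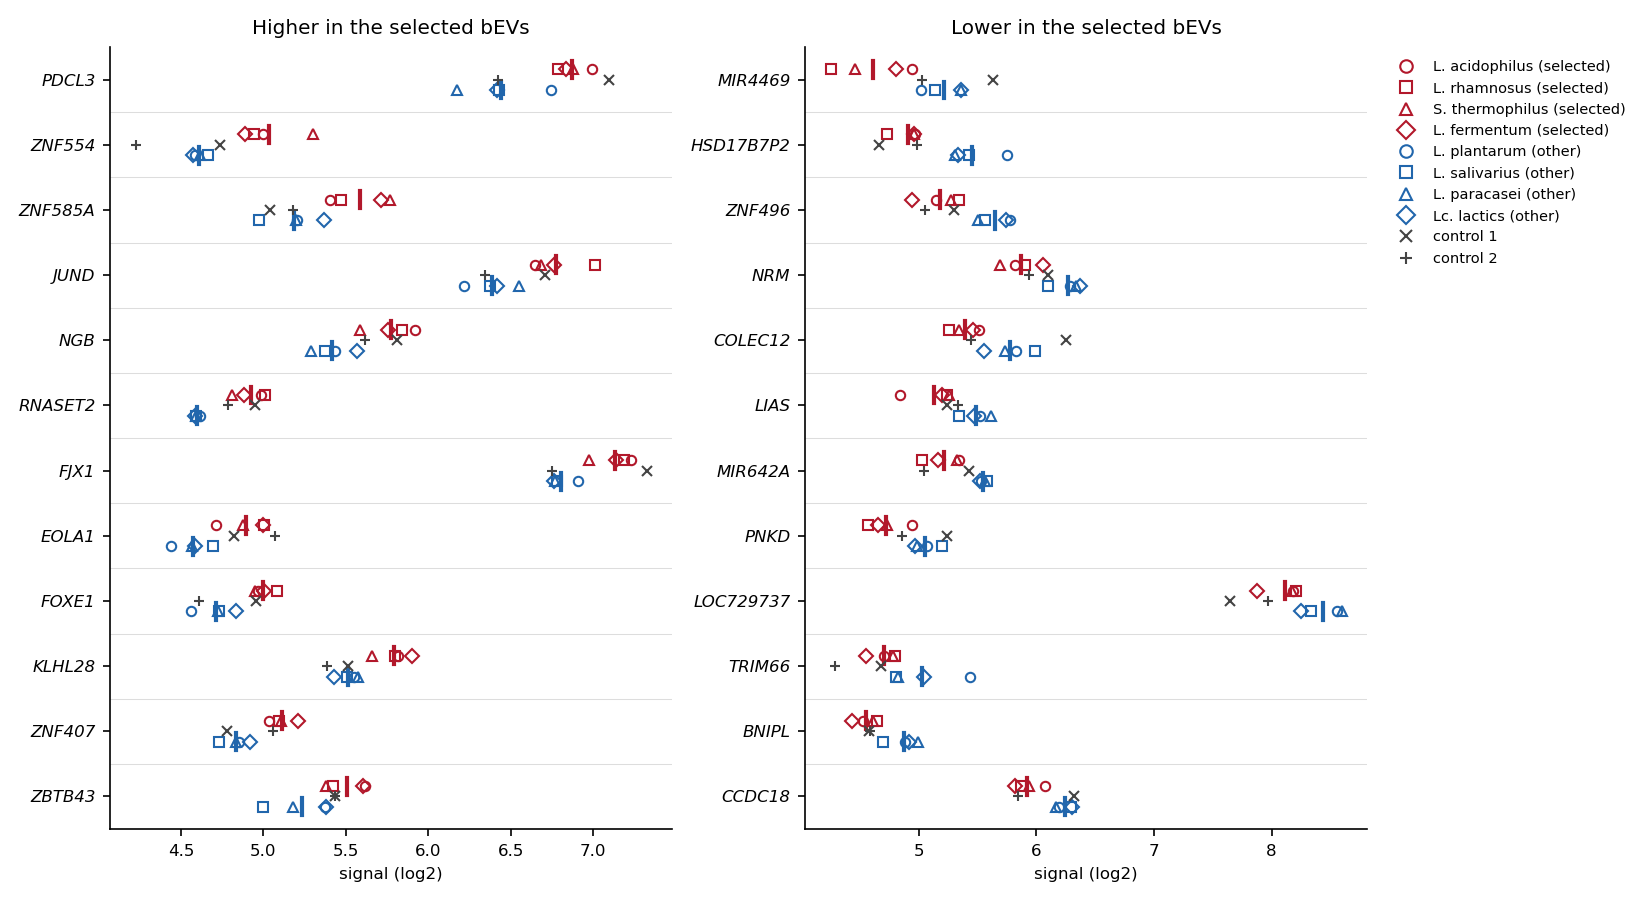
Signal (log2, x axis) on each array of the 24 bright genes with the largest differences whose groups did not overlap, 12 in each direction. Red marks are the selected bEVs, blue marks the other bEVs, vertical bars the group means, and black crosses the controls, which read 7.10 and 6.42 for PDCL3 and so fall on either side of its gap.

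Among the dim genes, where a small change in brightness gives a large log2 difference, GSTT4, a glutathione transferase gene, had the largest difference of all. It read 3.70, 3.82, 3.68 and 3.39 with the selected bEVs and 2.76, 2.31, 3.25 and 2.75 with the other bEVs, a difference of 0.88 (0.50 to 1.27). Its controls, at 3.39 and 4.01, were in and above the range of the selected bEVs. LINC02800 differed by 0.61 (0.36 without L. salivarius) and CBR3, a carbonyl reductase, by 0.55. In the other direction ADCY7, an adenylate cyclase, differed by -0.62 (-0.92 to -0.31), ZNF140 by -0.61 and CES4A, a carboxylesterase, by -0.57. For ADCY7 the controls, 3.77 and 3.85, lay just above the lowest of the other bEVs (3.76).

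MicroRNAs are short RNAs cut from a longer hairpin transcript, and they repress messenger RNAs that pair with their seed, bases 2 to 8 of the mature strand. The array measures transcripts of the microRNA genes and not the mature strands. Of 1072 measured microRNA genes, 13 lay above and 15 below without overlap, 2.61% against 2.06% of all genes in either direction, and 152 of the 1072 were bright. The 3 largest by rule in each direction are MIR2113, MIR4727 and MIR124-3 on the higher side and MIR4635, MIR4469 and MIR660 on the lower side, and MIR642A was among the leading genes. The mature sequences below, from RefSeq (GRCh38.p14), are those given for 5 of these 7 genes, with the seed in capitals. They show whether the printed strands share a seed. For MIR660 only the 3p strand is printed, and none is printed for MIR124-3 and MIR4469.
hsa-miR-2113: aUUUGUGCuuggcucugucac
hsa-miR-4727-5p: aUCUGCCAgcuuccacagugg
hsa-miR-4727-3p: aUAGUGGGaagcuggcagauuc
hsa-miR-4635: uCUUGAAGucagaacccgcaa
hsa-miR-660-3p: aCCUCCUGugugcauggauua
hsa-miR-642a-5p: gUCCCUCUccaaaugugucuug
hsa-miR-642a-3p: aGACACAUuuggagagggaacc

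The 7 mature strands have 7 different seeds. MIR2113 read 4.31, 4.42, 4.13 and 4.72 with L. acidophilus, L. rhamnosus, S. thermophilus and L. fermentum, and 3.38, 3.82, 3.17 and 4.04 with L. plantarum, L. salivarius, L. paracasei and Lc. lactics. The difference was 0.79 (0.38 to 1.21), and the controls, at 3.88 and 4.78, lay on both sides. MIR4727 was dim throughout, from 2.26 to 2.57 against 1.70 to 2.26, and its controls (1.57 and 1.44) were below every bEV array. MIR124-3, from 1.63 to 2.19 against 1.19 to 1.54, was dimmer still.

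MIR4635 read 3.14, 3.15, 3.27 and 2.28 with the selected and 3.87, 3.70, 3.64 and 3.35 with the other bEVs, a difference of -0.68 (-1.12 to -0.24), or -0.45 without L. fermentum. MIR4469 differed by -0.61 (-0.94 to -0.27), with both controls (5.64 and 5.03) in or beyond the range of the other bEVs. MIR660 differed by -0.48. MIR642A differed by -0.33 at its brightest probe set, while its 2 dimmer probe sets differed by 0.38 and 0.36 in the opposite direction, so no direction can be given for this gene.

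Immediate early genes are switched on within minutes by kinase signaling to factors such as SRF and CREB that are already in the nucleus, and they include FOS, JUN and EGR family transcription factors. Of the 21 gene lists described, this had the highest median difference, 0.10 (log2) over 22 measured members, against -0.01 over all genes. It had 17 members higher and 5 lower, and 4 members with an unadjusted p under 0.05, all higher, beside 3.80% of all genes. Relative to each gene's mean over the 8 arrays, the median of the list was highest with L. rhamnosus (0.15, 16 of 22 members above). It was 0.03 with L. acidophilus, 0.04 with S. thermophilus and -0.03 with L. fermentum. Among the other bEVs it was 0.00 with L. salivarius, -0.06 with L. plantarum, -0.07 with L. paracasei and -0.08 with Lc. lactics. JUND and ARC did not overlap between the groups, and EGR1 and FOS, named after their values were seen, overlapped. None had an adjusted p under 0.05. In the series record 5 bEV arrays follow control 1 and 3 follow control 2, which the labels do not call a batch. With these runs as a block the list median was 0.04 (0.045) and 3 members had an unadjusted p under 0.05, that of ARC being 0.0542, and whether the run has a part in the result was not tested.

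JUND, a member of the JUN family that is expressed in most cells, read 6.65, 7.01, 6.68 and 6.76 with L. acidophilus, L. rhamnosus, S. thermophilus and L. fermentum. It read 6.22, 6.38, 6.55 and 6.41 with L. plantarum, L. salivarius, L. paracasei and Lc. lactics. The difference was 0.39 (0.14 to 0.63, unadjusted p 0.00519), and the controls read 6.71 and 6.34. ARC, an activity-induced cytoskeletal gene of neurons, read 4.54, 4.28, 4.14 and 4.06 against 4.01, 3.99, 4.04 and 3.80, a difference of 0.30 (0.04 to 0.56), with controls of 4.15 and 4.37 in the range of the selected bEVs.

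EGR1 and FOS were high on 3 of the selected arrays and not on that of L. fermentum. In the series record L. fermentum is the only selected array that comes after the later control. Its strain and its run therefore cannot be told apart. EGR1 read 6.26 with L. acidophilus, 5.72 with L. rhamnosus, 5.73 with S. thermophilus and 5.19 with L. fermentum, against 4.96 (Lc. lactics) to 5.43 (L. plantarum) with the other bEVs. FOS read 4.84, 4.36, 4.47 and 3.72 against 3.77 to 3.88, so that L. fermentum was the lowest of all 8. The differences were 0.55 (0.13 to 0.97) and 0.53 (0.11 to 0.94). The controls read 5.35 and 5.20 for EGR1 and 4.74 and 4.12 for FOS. The second probe set of each gene differed in the same direction, by 0.35 and 0.21.

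DUSP5, a phosphatase that removes phosphate from nuclear ERK and is itself induced by ERK, was also lowest with L. fermentum among the selected bEVs, with 4.58 (L. acidophilus), 4.59 (L. rhamnosus), 4.29 (S. thermophilus) and 4.05 (L. fermentum) against 3.90 to 4.04. The groups did not overlap, by a gap of about 0.01, and the difference was 0.38 (0.10 to 0.66). Its second probe set differed by 0.08, and the controls read 4.61 and 3.99. JUN, at a mean of 9.80 over the 8 arrays the brightest member of the list, differed by 0.18 (-0.13 to 0.48). FOSB, which read 5.36, 5.34, 5.13 and 4.73 with the selected bEVs, was again lowest with L. fermentum and differed by 0.16, IER2 by 0.11 and JUNB by 0.06, all with overlapping groups. For DUSP5 and FOSB too, the strain and the run of the L. fermentum array cannot be told apart.

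**Figure D4:**
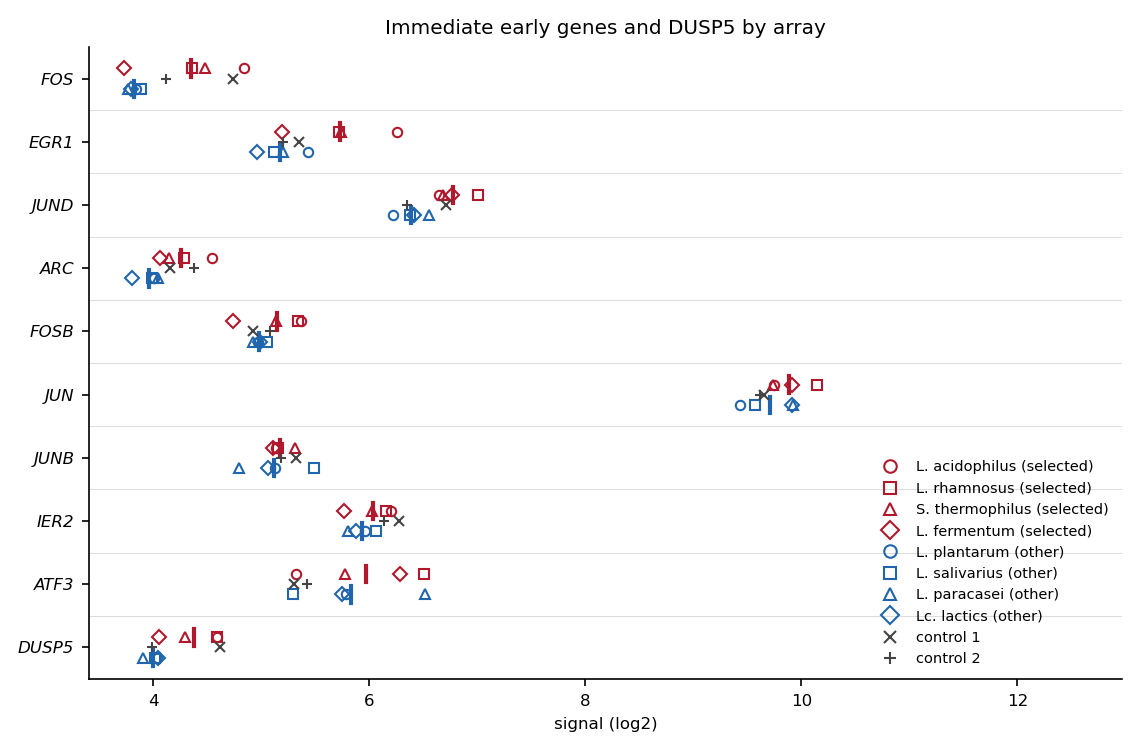
Signal (log2, x axis) on each array of 9 immediate early genes and DUSP5, with the selected bEVs in red, the other bEVs in blue, group means as vertical bars and controls as black crosses. L. fermentum lies among the other bEVs for EGR1 (5.19) and below them for FOS (3.72), and the controls span much of the range for FOS.

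The promoters of JUND and EGR1 are shown because these genes lead the list with and without separation of the groups. They are the 250 bases before the start of each gene in RefSeq (GRCh38.p14), with matches in capitals to the CArG box, the site of SRF (searched by its consensus with a core of 6 A or T bases, which is the same on both strands), and to TGACGTCA, the full CREB and ATF site, which is its own reverse complement.
JUND, chr19:18281623-18281872, minus strand: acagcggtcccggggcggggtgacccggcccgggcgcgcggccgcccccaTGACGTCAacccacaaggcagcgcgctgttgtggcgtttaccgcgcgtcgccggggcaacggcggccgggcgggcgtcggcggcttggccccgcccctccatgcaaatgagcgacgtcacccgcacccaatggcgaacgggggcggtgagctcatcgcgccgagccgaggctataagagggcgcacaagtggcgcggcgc
EGR1, chr5:138465229-138465478, plus strand: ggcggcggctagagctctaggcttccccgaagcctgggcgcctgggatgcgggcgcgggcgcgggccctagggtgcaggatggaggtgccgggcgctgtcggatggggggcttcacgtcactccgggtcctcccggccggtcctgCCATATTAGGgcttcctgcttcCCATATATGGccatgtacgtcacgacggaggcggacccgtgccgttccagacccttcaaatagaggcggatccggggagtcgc

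The EGR1 window held 2 CArG boxes and no TGACGTCA, and the JUND window held 1 TGACGTCA and no CArG box. Over all 35116 promoters of the table, 1.16% held a CArG box and 1.65% held TGACGTCA. Of 16 measured immediate early genes with a promoter in the table, 2 held a CArG box (EGR1 and SRF) and 2 held TGACGTCA (JUND and MAFF). The FOS window held neither. Only exact matches within 250 bases were searched, so sites farther upstream or of a variant sequence were not looked for.

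Collagen production was the main readout of the study and was assayed with bEVs of both groups, so the contrast is not one of collagen-tested against untested strains. The study measured collagen by Sirius Red staining and ELISA, and SMAD3 and MMP1 as protein. It did so in mouse fibroblasts and human hepatic stellate cells, whereas the values here are of RNA in HEK293T cells after 6 h. No measured gene of collagen production passed the test between the groups. Collagens are made as chains that are hydroxylated and folded in the endoplasmic reticulum, trimmed outside the cell and cross-linked by lysyl oxidases, and TGF-beta raises their transcription through SMAD proteins. Only 1 of 41 collagen chain genes has a symbol here, COL26A1, with a difference of 0.00 (-0.21 to 0.21), and the other chains and SERPINH1 were not analysed here. Of 19 folding, secretion and cross-linking genes measured, 14 were lower and 5 higher, with a median of -0.04 and 0 without overlap. The member with the largest difference was TLL2, a tolloid-like procollagen protease, at -0.49 (-0.89 to -0.10). It read 1.91, 2.37, 2.12 and 2.72 against 2.87, 2.41, 3.04 and 2.78, near the bottom of the signal range.

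Of 28 TGF-beta and SMAD genes measured, 16 were higher and 12 lower, with a median of 0.02 and none with an unadjusted p under 0.05. SMAD3, the receptor-activated SMAD of the TGF-beta pathway, read 3.41, 3.30, 3.37 and 3.28 against 3.46, 3.51, 3.52 and 3.19, a difference of -0.08 (-0.30 to 0.14). SMAD3 is dim here, with a mean of 3.38 over the 8 arrays. SMAD2 differed by 0.02 (-0.19 to 0.22). LEFTY1, an inhibitor of Nodal signaling, had the largest difference at 0.37 (-0.002 to 0.75), or 0.225 without S. thermophilus.

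Matrix metalloproteinases cut collagen outside the cell. Of 27 metalloproteinase and inhibitor genes measured, 18 were higher and 9 lower, with a median of 0.05. MMP1, the interstitial collagenase, was at 1.76 to 2.56 with the selected bEVs and 1.89 to 2.26 with the other bEVs, a difference of -0.08 (-0.43 to 0.28). Its mean over the 8 arrays, 2.09, was near the bottom of the signal range. MMP13, another collagenase, was the only member without overlap. It read 2.63, 2.14, 2.05 and 2.35 against 1.70, 1.86, 1.92 and 1.99, a difference of 0.43 (0.14 to 0.72, unadjusted p 0.00782) at a signal among the lowest on the array. The inhibitors TIMP1, TIMP2 and TIMP3 differed by 0.11, 0.15 and 0.05.

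At the other end of the lists, genes of sterol synthesis and uptake, which SREBP2 turns on when membrane cholesterol is low, had the lowest median, -0.11, with 16 of 21 members lower, 5 higher, 0 without overlap and 0 with an unadjusted p under 0.05. ACAT2, the cytosolic acetoacetyl-CoA thiolase, had the largest difference at -0.27 (-0.55 to 0.01), and L. fermentum at 7.87 came close to the highest of the other bEVs (7.88, L. paracasei). Relative to each gene's mean over the 8 arrays, the median of the list was highest with Lc. lactics (0.13) and L. fermentum (0.10) and lowest with L. rhamnosus (-0.14). These highest arrays are from both groups and both come after control 2 in the record. With the runs as a block the list median was -0.06, as it was without L. rhamnosus (-0.064) or without Lc. lactics (-0.058).

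The measured members of the signaling lists that the study discusses lay close to all genes. In the Ras and MAPK cascade, 69 of 95 listed genes were measured, 33 of them higher and 36 lower, with a median of 0.00 (-0.005). Besides DUSP5, the groups did not overlap for SHC3, an adaptor of receptor tyrosine kinases, at 0.20 (-0.02 to 0.42). The same held for MAP4K1, a kinase of blood cells upstream of JNK, at -0.39 (-0.67 to -0.12). The medians were 0.00 (-0.005) for PI3K-AKT (54 of 90 listed genes measured) and -0.04 (-0.035) for mTOR (44 of 62). They were 0.00 (-0.004) for JAK-STAT (42 of 75) and 0.00 (0.005) for focal adhesion (26 of 78). No measured member of these lists was without overlap. The members with the largest difference were VEGFC, a lymphatic growth factor, at 0.36, FLCN, the folliculin subunit that acts on Rag GTPases, at -0.29, CISH, a STAT-induced inhibitor of cytokine receptors, at 0.32 and CAV3, the muscle caveolin, at -0.29. With an array left out, CISH ranged from 0.19 (without L. paracasei) to 0.51 (without L. salivarius) and CAV3 from -0.56 (without L. paracasei) to -0.04 (-0.038, without L. plantarum).

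Among the remaining lists, oxidative phosphorylation had 20 of 82 listed genes measured, of which 13 were lower. COX6A2, the muscle form of a cytochrome c oxidase subunit, was below without overlap at -0.33 (-0.62 to -0.05). In the retinoid pathway DHRS4, a retinal reductase, was above at 0.24 (-0.008 to 0.499, and 0.14 without L. rhamnosus). RDH11, another, was below at -0.08 (-0.257 to 0.105). HSPA14, of the HSP70 family, was below at -0.19 (-0.40 to 0.03, and -0.125 without L. rhamnosus). HSPA1L, of the same family, was below at -0.14 (-0.33 to 0.06), with further probe sets between -0.02 and 0.02. TLR3, the receptor for double-stranded RNA, was above at 0.17 (-0.05 to 0.39, and 0.09 without L. paracasei) with signals near 2. Interferon-induced genes had BST2 (0.36, or 0.19 without L. fermentum) and IRF9 (0.25) higher and MX2 (-0.37) lower in mean, all overlapping. No list member reached 1.5-fold. Over the 21 lists, 12 of 637 genes did not overlap, 1.88% against 2.06% of all genes, and 20 (3.14%) had an unadjusted p under 0.05 against 3.80%.

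**Figure D5:**
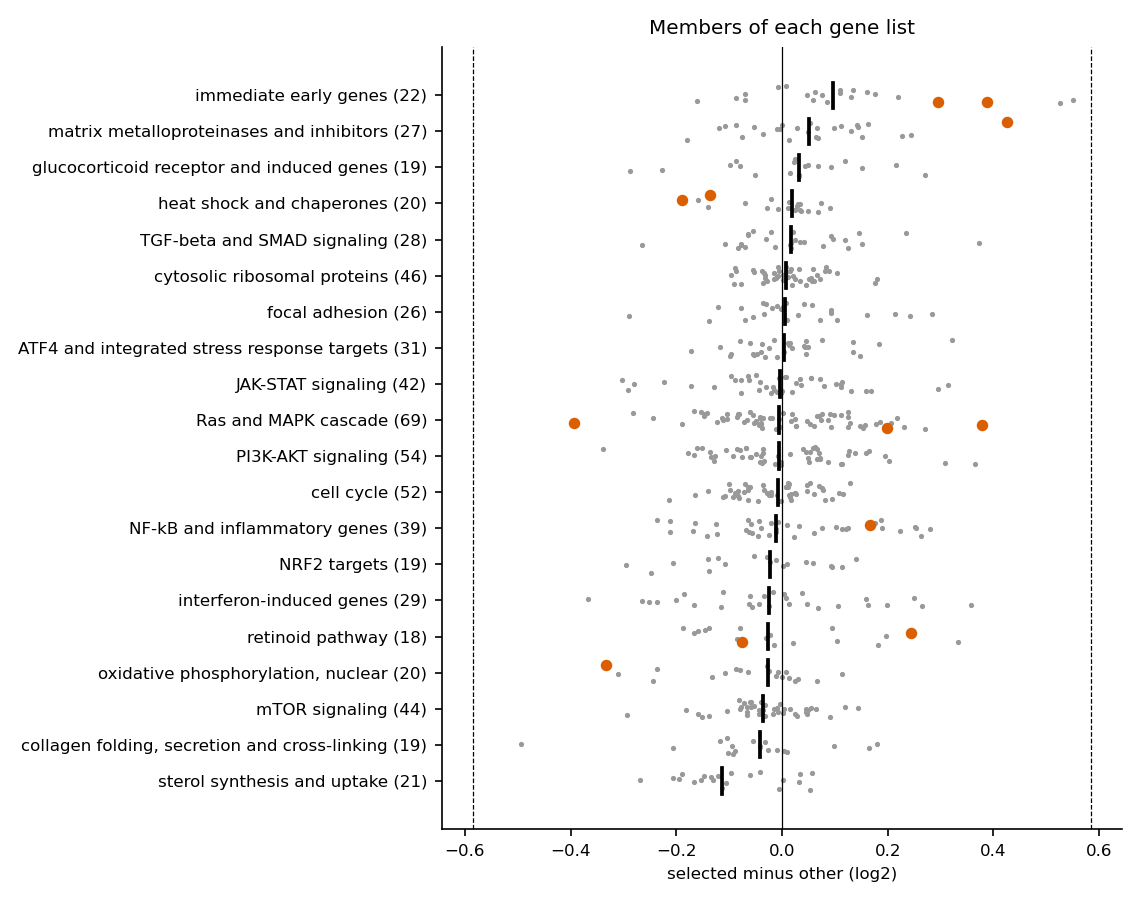
Difference between the selected and the other bEVs (log2, x axis) of each measured member of 20 gene lists, the collagen chain list with its single member left out. Points are genes, orange points those whose groups did not overlap, black bars the list medians, which run from -0.11 to 0.10, and dashed lines 1.5-fold.

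The genes that varied most between the bEVs varied within the groups, though not equally in both. The median SD over the 8 arrays was 0.14 (log2) for bright genes. The 8 bright protein-coding genes with the largest SD, named after their values were seen, were TMSB15A, YY2, DES, GPCPD1, SPATA31H1, ATF3, STC2 and ZNF616, with SDs from 0.48 to 0.56. For none did the groups separate, but only 2.06% of all genes did, so 8 genes are too few to show a departure from this. YY2 varied mostly within the selected bEVs (SD 0.77 against 0.23), where L. fermentum read 3.52. DES varied mostly within the other bEVs (SD 0.60 against 0.27 in the selected), where L. salivarius read 3.61. DES also differed between the groups by 0.55 (-0.01 to 1.11), and its second probe set by 0.24.

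STC2, a secreted stanniocalcin induced by ATF4 in stress, read 7.49, 8.83, 8.01 and 7.81 with the selected bEVs and 8.04, 7.44, 8.60 and 8.0 with the other bEVs, a difference of 0.01 (-0.61 to 0.64). Its highest signals were with L. rhamnosus and L. paracasei, the bEVs with the highest MTD, which are in different groups. The next highest was with L. plantarum (8.04), among the lowest in MTD, and the STC2 controls read 7.44 and 7.30. Whether dose has a part was not tested. ATF3, a stress-induced factor, was likewise highest with L. paracasei (6.52) and L. rhamnosus (6.50), and lowest with L. salivarius (5.29) and L. acidophilus (5.32). Its controls read 5.30 and 5.425. GPCPD1, a glycerophosphocholine phosphodiesterase, was highest with L. rhamnosus (7.52), L. paracasei (7.47) and L. plantarum (7.41) and lowest with L. salivarius (6.06), with a difference of 0.01 (-0.63 to 0.65). The GPCPD1 controls read 5.56 and 6.19. TMSB15A, a beta-thymosin that binds actin monomers, was lowest with L. plantarum at 4.06 and between 5.08 and 5.95 with the rest of the bEVs. Its controls, at 5.99 and 6.04, were above every bEV array.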

How the data were processed

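The table deposited by the authors gives log2 signals for each probe set of 10 arrays. MAS5 is named in the labels without a version, and the GeneChip Command Console Software in the methods. The sources used here do not say how background, summarization and normalization were handled. All arrays have nearly equal quartiles, and no further normalization was applied. Of 53617 probe sets, 16098 had a gene symbol through the platform annotation, updated by Entrez ID (GRCh38.p14), and 37519 are unnamed here. For 779 genes with several probe sets the brightest was used. The number of arrays limits the precision.

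The 4 selected and 4 other bEV arrays were compared in limma (version 3.58.1 in R 4.3.3, residual degrees of freedom 6, prior 5.17), with Benjamini-Hochberg adjustment over 14884 genes, and 95% intervals from the same fit. The fit was tested on simulated data. Distances between arrays were tested by exact permutation over the 70 assignments of 8 arrays to 4 and 4. Genes whose groups do not overlap all have an exact permutation p of 0.0286 (two-sided), the smallest possible.

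Genes were named by rule. These were the 12 largest non-overlapping differences in each direction with at least the median signal, the 4 largest below it, 3 microRNA genes in each direction, SMAD3 and MMP1, and in each list up to 4 non-overlapping members or the member with the largest difference. The groups, the lists and the rule were chosen with earlier results of these data known. Other genes were named after their values were seen. Lists are described by counts and medians, with no test of the set.

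Alternatives were leaving out each array, quantile normalization, median centring, a filter and a floor on low signals, the mean of probe sets, all probe sets, limma with trend and robust variance, both controls in the fit, the run of records after each control as a block (the labels name no batch), and a 2-fold threshold.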

Additional observations from a re-analysis of the deposited data

Results flagged for a closer look

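In 12 of 158 groups of 4 arrays looked at (each of 79 named genes in each group), the highest or lowest array stood apart from the rest by more than Dixon's critical value for 4 samples. Chance flags about 1 in 20 groups, or 5%. Among the selected bEVs, these were L. rhamnosus at 4.73 for HSD17B7P2 and at 2.24 for TLR3, L. acidophilus at 4.84 for LIAS and at 4.34 for ZNF140, and L. fermentum at 7.88 for LOC729737, at 2.28 for MIR4635 and at 7.87 for ACAT2. Among the other bEVs, these were L. plantarum at 6.91 for FJX1 and at 2.79 for DDIT3, L. paracasei at 3.90 for DUSP5, and Lc. lactics at 3.19 for SMAD3 and at 3.59 for ANGPTL4. For several of these, such as TLR3, HSD17B7P2, FJX1 and DUSP5, the rest of the group lay within a few hundredths of each other. A small step would suffice there.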

How the results depend on the processing

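No gene passed an adjusted p under 0.05 in limma in any of the 17 settings. The exact permutation p of single genes adds nothing to this. Its smallest possible value, 0.0286, could pass the adjustment over 14884 genes only if most of them had it, and 307 did. Without L. plantarum the count at an unadjusted p under 0.05 rose from 566 to 713, the highest of the leave-one-out range of 577 to 713. It was 234 among bright genes (at least the median signal) and 2144 over all probe sets. The count at 1.5-fold, 22, ranged from 30 to 42 with an array left out (40 without L. plantarum or L. paracasei, 42 without S. thermophilus, 37 without L. fermentum), and was 3 among bright genes, 687 over all probe sets and 0 at 2-fold. The count without overlap, 307, ranged from 645 (without S. thermophilus) to 836 (without L. plantarum), since 4 arrays against 3 overlap less readily, and was 114 among bright genes and 1243 over all probe sets. List members with an unadjusted p under 0.05 numbered 20, ranged from 16 to 29 with an array left out, and were 10 among bright genes. The difference in mean distance, -0.51, stayed negative in every setting. It ranged from -0.88 (without L. rhamnosus) to -0.07 (without L. plantarum) with an array left out and was -1.12 over all probe sets.

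Of the 79 named genes, 69 kept their direction in every setting. MIR642A changed to 0.13 with the mean of its probe sets. With an array left out, MMP1 ranged from -0.246 to 0.022 (the latter without L. fermentum), COL26A1 from -0.047 to 0.059, TMSB15A from -0.131 (without L. plantarum) to 0.391, YY2 from -0.257 to 0.301 (without L. fermentum), GPCPD1 from -0.299 to 0.173, SPATA31H1 from -0.089 to 0.374, ATF3 from -0.045 to 0.363, STC2 from -0.251 to 0.207 and ZNF616 from -0.186 to 0.277. ZNF616 was at -0.179 with the record runs as a block. The cause was not tested. Quantile normalization and centring moved the median of all genes by less than 0.01. No paired analysis was possible because each array is of a different strain and the labels give no shared replicate number. At 4 arrays a group, differences under about 0.26 (log2) could not be resolved for the typical gene even without adjustment. Larger ones need not pass the adjusted test, as with GSTT4 at 0.88 (limma adjusted p 0.9999).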
